A study of Mus musculus with 72 samples.

Results

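The livers of 6 male mice kept with a conventional, specific pathogen-free (SPF) microbiota and collected at ZT6 were compared, 3 with and 3 without a working clock in the liver, out of 72 livers in the whole study. ZT (zeitgeber time) counts hours from lights on in a 12 h light and 12 h dark cycle, so ZT6 is midday, in the resting phase of a mouse. The 6 libraries were chosen by their labels alone (genotype, microbial status and time), and no measured value entered the choice. WT mice had the genotype Bmal1 fl/fl, in which loxP sites flank part of Bmal1, and L-Bmal1-KO (LKO) mice had the genotype Bmal1 fl/fl Albumin-Cre, so both groups carried the floxed allele and only LKO mice carried Cre. The labels give the strain as C57BL/6 and no age, and the study's methods give the background as C57BL/6J. For these mice the methods state an age only at the start of individual housing, some weeks before the livers were taken. Albumin-Cre acts in hepatocytes, and whole liver was sampled, which also holds blood vessel, immune, stellate and bile duct cells. The comparison asks what loss of the hepatocyte clock does to liver transcripts at this hour in mice with a normal flora.

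The clock of liver cells is a feedback loop of transcription. BMAL1 (listed here under its gene symbol Arntl) pairs with CLOCK or NPAS2 and binds E-boxes in the genes of its own repressors, the PER and CRY proteins, and of REV-ERBα (Nr1d1) and REV-ERBβ (Nr1d2). The REV-ERBs occupy ROREs, short elements that activators such as RORα also use, and there hold down Arntl, Npas2, Clock and Cry1. A further layer, the PAR bZIP factors DBP, TEF and HLF, acts through D-boxes on genes of detoxification and lipid metabolism, and NFIL3 opposes them.

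The values were counts of reads per gene, and the 6 libraries held 18932651 to 20832529 of them. Levels are given as CPM, counts per 1000000 scaled by edgeR's TMM factors over the 12 libraries of ZT6, and differences as log2 fold changes, LKO minus WT, with their standard error (SE). A gene was called where the quasi-likelihood test of edgeR gave a p, adjusted by the Benjamini-Hochberg method across every gene tested, under 0.05. The labels call the 3 samples of a group replicates without saying more, so p-values measure the spread between these samples. The markers of hepatocytes were present at high levels in all 6 libraries, with Apoa1 between 6882 and 8850 CPM and Cyp2e1 between 7249 and 9399 CPM. Each library had at most 6 counts of Xist and at least 2377 of the Y-linked Ddx3y, as the label male requires. Among the 12 libraries fitted, the library labelled WT GF ZT6 replicate 3 (germ free, GF), went against its label, with Nr1d1 at 9.62 CPM beside 51.6 and 50.7 CPM in the other libraries of its group, and Cry1 at 28.6 CPM beside 4.77 and 5.83 CPM. It entered the comparison of the SPF mice through the shared estimate of the spread, the filter on low counts and the scaling. It was not part of the group means compared. In bulk tissue, fewer cells of a type and less RNA per cell cannot be told apart.

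Of 13609 genes tested, 988 (7.26%) were called, 526 (3.87%) higher and 462 (3.39%) lower in LKO than in WT livers. Among them 499 (3.67%) differed by 1 or more on the log2 scale, of which 290 were higher and 209 lower. The 3 LKO and 3 WT libraries did not overlap in 985 of the called genes, beside 3950 (29%) of all genes tested. The median log2 fold change over all genes was -0.01. DESeq2 called 1337 genes (9.82%), 980 of the 988 among them. With the library labelled WT GF ZT6 replicate 3 left out, 1452 genes were called, 987 of the 988 among them. Leaving out single SPF libraries gave 534 (without LKO replicate 2), 571 (without LKO replicate 3) and 641 genes (without WT replicate 2), and 450 genes (294 higher, 156 lower) were called whichever of the 6 was left out.

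Within the clock loop, the transcripts known to be held down by REV-ERBs (Npas2, Cry1, Arntl and Clock) were higher in LKO livers at midday, and the REV-ERB genes, Bhlhe41, Ciart, Per3, Dbp and Tef were lower. Of 10 repressors 1 rose and 5 fell, and of the 4 PAR bZIP genes and their opponent 2 fell. These genes were listed because they make up the clock that was targeted, so nothing is read from their share of calls beside the 7.26% of all genes.

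Arntl (chr7:113207465-113314126, GRCm38), which encodes BMAL1, had 1.39, 2.35 and 2.87 CPM in the WT libraries and 11.5, 11.7 and 9.94 CPM in the LKO libraries. Every LKO liver thus held more Arntl transcript than any WT liver (2.32, SE 0.45, adjusted p = 0.00656). Counts over a whole gene cannot tell deleted exons from remaining ones, so this level does not check the deletion, and genotypes were taken from the labels. Npas2 (chr1:39193731-39363236), whose protein can stand in for CLOCK, was close to the detection limit in WT livers, at 0.0496, 0.288 and 0.287 CPM, and reached 22, 30.8 and 32.6 CPM in LKO livers. This was the largest change of any clock gene (7.04, SE 0.33, adjusted p = 1.6e-07). Clock had 54.2, 67.7 and 59.4 CPM in WT and 96.7, 104 and 90 CPM in LKO livers, a small difference without overlap (0.68, SE 0.12, adjusted p = 0.00423). Rora, which encodes RORα, had 101 to 108 CPM in WT and 101 to 119 CPM in LKO livers, and the difference of 0.03 (SE 0.12) was within the spread.

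Among the repressors, Nr1d1 (chr11:98767932-98775333) had 58.4, 58.6 and 74.2 CPM in WT and 7.87, 5.81 and 11.1 CPM in LKO livers. It fell by 2.95 on the log2 scale (SE 0.46, adjusted p = 0.00163). Nr1d2 went from 139, 122 and 127 CPM to 33.3, 18.4 and 24.6 CPM and fell by 2.35 (SE 0.20, adjusted p = 1.31e-05). Both REV-ERB genes were therefore low in all 3 LKO livers at the hour when Nr1d1 was at its highest WT mean. Cry1 (chr10:85131700-85185064), a repressor under both E-box and RORE control, moved the other way, from 8.28, 7.11 and 4.88 CPM to 51.9, 69.9 and 66.1 CPM (3.21, SE 0.51, adjusted p = 0.00181). Its paralogue Cry2 did not pass the test (0.25, SE 0.15, adjusted p = 0.353).

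The Period genes differed among themselves. Per3 had 31.1, 15.9 and 25.2 CPM in WT and 8.78, 6.25 and 6.72 CPM in LKO livers and fell by 1.73 (SE 0.23, adjusted p = 5.47e-04). Per1, with 50.4, 29.8 and 22 CPM against 15.5, 22 and 8.82 CPM, did not pass (-1.14, SE 0.38, adjusted p = 0.0944), and WT replicate 3 and LKO replicate 2 were at nearly the same level. Per2 had 35, 16.4 and 18.4 CPM in WT and 27, 22.2 and 15 CPM in LKO livers, ranges that overlap almost fully (-0.12, SE 0.33, adjusted p = 0.883). Bhlhe41 (DEC2), a repressor that binds E-boxes, had 5.16, 4.66 and 5.64 CPM against 0.409, 0.133 and 0.269 CPM and fell by 4.22 (SE 0.44, adjusted p = 8.54e-05). Its relative Bhlhe40 (DEC1), at 83.2, 153 and 134 CPM against 117, 85.2 and 114 CPM, did not pass (-0.23, SE 0.24, adjusted p = 0.648). Ciart (CHRONO), which binds BMAL1 and represses it, had 10.4, 2.11 and 3.78 CPM against 1.36, 0.222 and 0.537 CPM. It fell by 2.93 (SE 0.61, adjusted p = 0.0101), and its call was lost without LKO replicate 2 (adjusted p = 0.0503) or LKO replicate 3 (adjusted p = 0.0575).

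In the output layer, Dbp (chr7:45705088-45710203) had 69, 45.3 and 51.8 CPM in WT and 12.2, 5.01 and 7.52 CPM in LKO livers and fell by 2.75 (SE 0.40, adjusted p = 9.21e-04). Tef, at 266, 184 and 186 CPM against 125, 104 and 119 CPM, fell by 0.87 (SE 0.15, adjusted p = 0.00259). Hlf, at 69.1, 42.5 and 46.2 CPM against 54.7, 41.5 and 51.4 CPM, was indistinguishable at this spread (-0.10, SE 0.17). Nfil3 had 15, 25.5 and 9.9 CPM against 26.9, 35 and 35.5 CPM, no overlap, and did not pass (0.95, SE 0.33, adjusted p = 0.113).

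**Figure D1:**
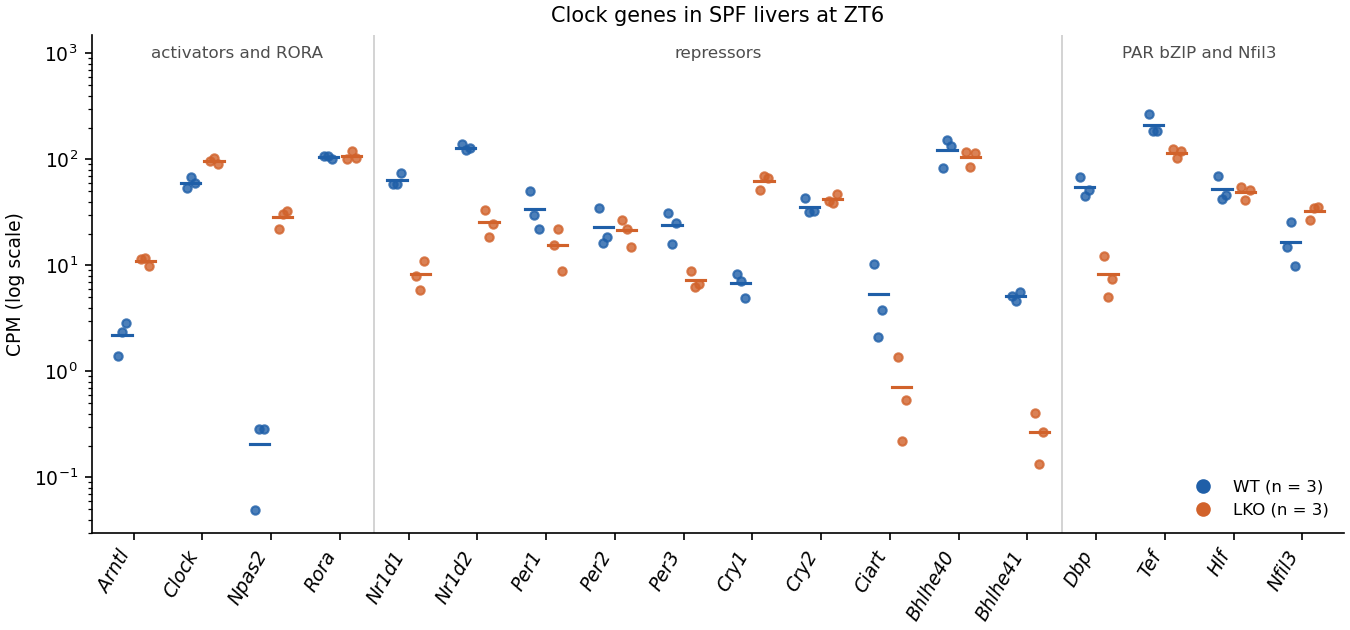
Levels of 18 clock genes in CPM on a log scale, 3 WT (blue) and 3 LKO (orange) SPF livers at ZT6, with points for libraries and bars for the mean of each group. Npas2, Cry1, Arntl and Clock are higher in LKO livers, Nr1d1, Nr1d2, Bhlhe41, Ciart, Per3, Dbp and Tef are lower, and the groups overlap for Rora, Per2, Cry2, Bhlhe40 and Hlf.

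The letters that these factors recognise could be read near the starts of 32 of 38 clock and clock output genes, in RefSeq promoter windows (GRCm38.p6, 250 bases before to 50 after each start). The sequences are shown because their genes carry the 2 directions described above. Each reads 5′ to 3′ on the strand of the gene, with the matching letters in capitals. The E-box searched was CACGTG, which is its own reverse complement. Genes with an E-box in the window included Cry1 (chr10:85185085-85185138, minus strand), Ciart (chr3:95882243-95882296, minus strand, with 2 matches in this stretch), Bhlhe41 (chr6:145865544-145865597, minus strand) and Tef (chr15:81811252-81811305, plus strand):
Cry1: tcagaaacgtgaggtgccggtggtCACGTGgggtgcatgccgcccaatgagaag
Ciart: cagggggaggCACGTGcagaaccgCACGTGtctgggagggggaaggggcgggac
Bhlhe41: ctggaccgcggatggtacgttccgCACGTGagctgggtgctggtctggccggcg
Tef: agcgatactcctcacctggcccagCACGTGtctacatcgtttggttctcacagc
Ciart, Bhlhe41 and Tef fell and Cry1 rose, so an E-box near the start was found in genes of both directions.

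The D-box searched was TTATGTAA or TTACGTAA on either strand, so that TTACATAA marks the former read from the other strand. It was found in the windows of Per3 (chr4:151044792-151044847, minus strand), of Coq10b (chr1:55052584-55052639, plus strand), which encodes a coenzyme Q-binding protein of mitochondria, and of Alb (chr5:90460623-90460678, plus strand, 2 matches), the albumin gene:
Per3: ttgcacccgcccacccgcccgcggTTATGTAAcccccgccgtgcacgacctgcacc
Coq10b: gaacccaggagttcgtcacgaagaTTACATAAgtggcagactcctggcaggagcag
Alb: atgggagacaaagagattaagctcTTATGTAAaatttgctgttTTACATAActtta
All 3 fell, but they were picked for display from genes called lower, so their shared direction is not a result. D-box letters were found in 11 genes called lower and in 4 called higher. The 4 were Prlr (1.03), Ugt2b1 (0.79), 1110002J07Rik (1.84) and 4833411C07Rik (1.25). Alb is the most abundant transcript of these livers, with 91754, 60913 and 73531 CPM in WT and 40012, 30374 and 32158 CPM in LKO livers, and fell by 1.14 (SE 0.19, adjusted p = 0.00271). The other 9 hepatocyte markers did not pass the test.

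The RORE searched was AANT followed by AGGTCA or GGGTCA, on either strand. It was found downstream of a start of Arntl (chr7:113207518-113207547, plus strand) and upstream of Bhmt (chr13:93637828-93637885, minus strand), which encodes an enzyme of methionine metabolism:
Arntl: cgacatttagggaaggcagaAAGTAGGTCA
Bhmt: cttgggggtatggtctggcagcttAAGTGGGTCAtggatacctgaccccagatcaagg
Both rose, Bhmt from 431, 254 and 327 CPM to 1250, 1131 and 846 CPM (1.67, SE 0.28, adjusted p = 0.00254).

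Over the 10278 genes tested that had a window, the RORE letters were present in 43 (0.418%), in 6 of 370 genes called higher (1.62%) and in 0 of 361 called lower. The 6 were Apoh, Arntl, Bhmt, Ddc, Leo1 and Tjp3. D-box letters were present in 94 of the 10278 genes (0.915%), in 11 of those called lower (3.05%) and 4 of those called higher (1.08%). E-box letters were present in 11.6% of genes tested, in 11.1% of those called higher and in 13% of those called lower. Over all 32851 windows of the genome the shares were 7.15% for the E-box, 1.06% for the D-box and 0.435% for the RORE. A match of letters is not a binding site, and the windows of Nr1d1, Nr1d2, Dbp, Npas2 and Clock held none of the 3 motifs.

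Of 19 genes known as clock outputs in liver, 5 rose and 6 fell (57.9% called). Such genes were listed for their known clock control. Rgs16, a brake on G protein signalling, had 115, 7.68 and 48.4 CPM in WT and 5.69, 0.266 and 0.224 CPM in LKO livers, and fell by 4.80 (SE 1.16, adjusted p = 0.0236). The WT livers spread widely, the lowest just above the highest LKO liver, and the call was lost without WT replicate 1 (adjusted p = 0.0712), LKO replicate 2 (adjusted p = 0.103) or LKO replicate 3 (adjusted p = 0.105). Usp2, a deubiquitinase under clock control, had 49.5, 19.1 and 17.2 CPM against 8.37, 3.32 and 6.31 CPM and fell by 2.25 (SE 0.38, adjusted p = 0.00254). Por, the reductase that hands electrons to microsomal cytochromes P450, had 330, 224 and 231 CPM against 86.6, 75.8 and 75.8 CPM, and fell by 1.72 (SE 0.21, adjusted p = 2.44e-04). On the other side, Cdkn1a (p21), an inhibitor of the cell cycle, went from 1.49, 0.96 and 2.63 CPM to 33.2, 39.2 and 29.1 CPM (4.32, SE 0.27, adjusted p = 9.51e-07). Ppard, which encodes a nuclear receptor for fatty acids, went from 4.81, 4.27 and 4.35 CPM to 29.2, 25.4 and 37 CPM (2.77, SE 0.20, adjusted p = 2.90e-06).

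Outside the clock, the largest increases (genes whose mean log2 CPM was 1 or more) included several transcripts that WT livers scarcely held. Slc34a2, a sodium-phosphate transporter, had 0.144 to 0.287 CPM in WT livers and 25.2, 23.8 and 29.3 CPM in LKO livers (6.81, SE 0.50, adjusted p = 3.62e-06). Loxl4, which crosslinks collagen, had 0.645, 1.39 and 1.2 CPM against 37.4, 46.6 and 44.4 CPM (5.30, SE 0.26, adjusted p = 1.6e-07). Ntrk2, the receptor for the neurotrophin BDNF, had 2.43, 2.02 and 1.53 CPM against 59.3, 72.3 and 44.8 CPM (4.88, SE 0.50, adjusted p = 7.33e-05). These 3 stood well apart, with every LKO library more than 10 CPM above every WT library. Moxd1, which encodes a monooxygenase-like protein, had the largest fold change (9.52, SE 1.88, adjusted p = 0.00763), from 0 to 0.191 CPM in WT livers, but ran from 17.9 to 167 CPM among the LKO livers. Single WT livers of other groups held Moxd1 at such levels too. WT GF ZT6 replicate 2 had 48 CPM, beside 2.26 and 0.295 CPM in its group. The library labelled WT SPF ZT14 replicate 3 had 129 CPM, beside 0.166 and 1.41 CPM, scaled with the SPF WT livers of the whole day. Pitx3, a homeobox factor, rose from 0.298, 0.624 and 0.478 CPM to 9.14, 10.3 and 10.5 CPM (4.40, SE 0.25), and Grk5, a kinase of G protein-coupled receptors, from 3.92, 4.61 and 7.27 CPM to 60, 105 and 96 CPM (4.04, SE 0.25). Lpl, lipoprotein lipase, which adult liver keeps low, rose from 38.5, 42.8 and 62.4 CPM to 634, 767 and 727 CPM (3.89, SE 0.45, adjusted p = 1.55e-04). The other genes among the 15 largest increases were Npas2, Cry1, Cdkn1a, Cyp2c55, Ccn4 (3.22), Pdk4 and 2 genes with no assigned name, 4930459C07Rik (5.93) and Gm11832 (3.35).

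The largest decreases mixed transporters, enzymes and secreted proteins. Slc10a2, the sodium-dependent bile acid transporter, had 66.6, 71.7 and 45 CPM in WT and 6, 7.58 and 3.54 CPM in LKO livers and fell by 3.42 (SE 0.29, adjusted p = 1.60e-05). Nat8, an N-acetyltransferase, had 15.4, 12.5 and 14 CPM against 1.09, 1.15 and 1.61 CPM and fell by 3.43 (SE 0.31, adjusted p = 2.28e-05). Mme, the peptidase neprilysin, had 72.2, 60.8 and 55.2 CPM against 6, 7.98 and 8.1 CPM and fell by 3.09 (SE 0.38, adjusted p = 3.01e-04). In each of these the LKO livers were tightly grouped and far under the lowest WT liver. Maff, a small MAF factor (-2.83), Tgm1, a transglutaminase (-2.81), and Rcan2, a regulator of calcineurin (-2.61), were as clear. Mup17, a major urinary protein, fell by 4.58 (SE 1.06, adjusted p = 0.0181) from 43, 368 and 50.1 CPM to 1.59, 11.6 and 6.09 CPM, but its near-identical relatives make its reads hard to assign, and its call was lost without WT replicate 2, LKO replicate 1 or LKO replicate 3. The other genes among the 15 largest decreases were Rgs16, Saa1, Saa2, Saa3, Nr1d1, Dbp, Pfkfb3 and Trib3.

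**Figure D2:**
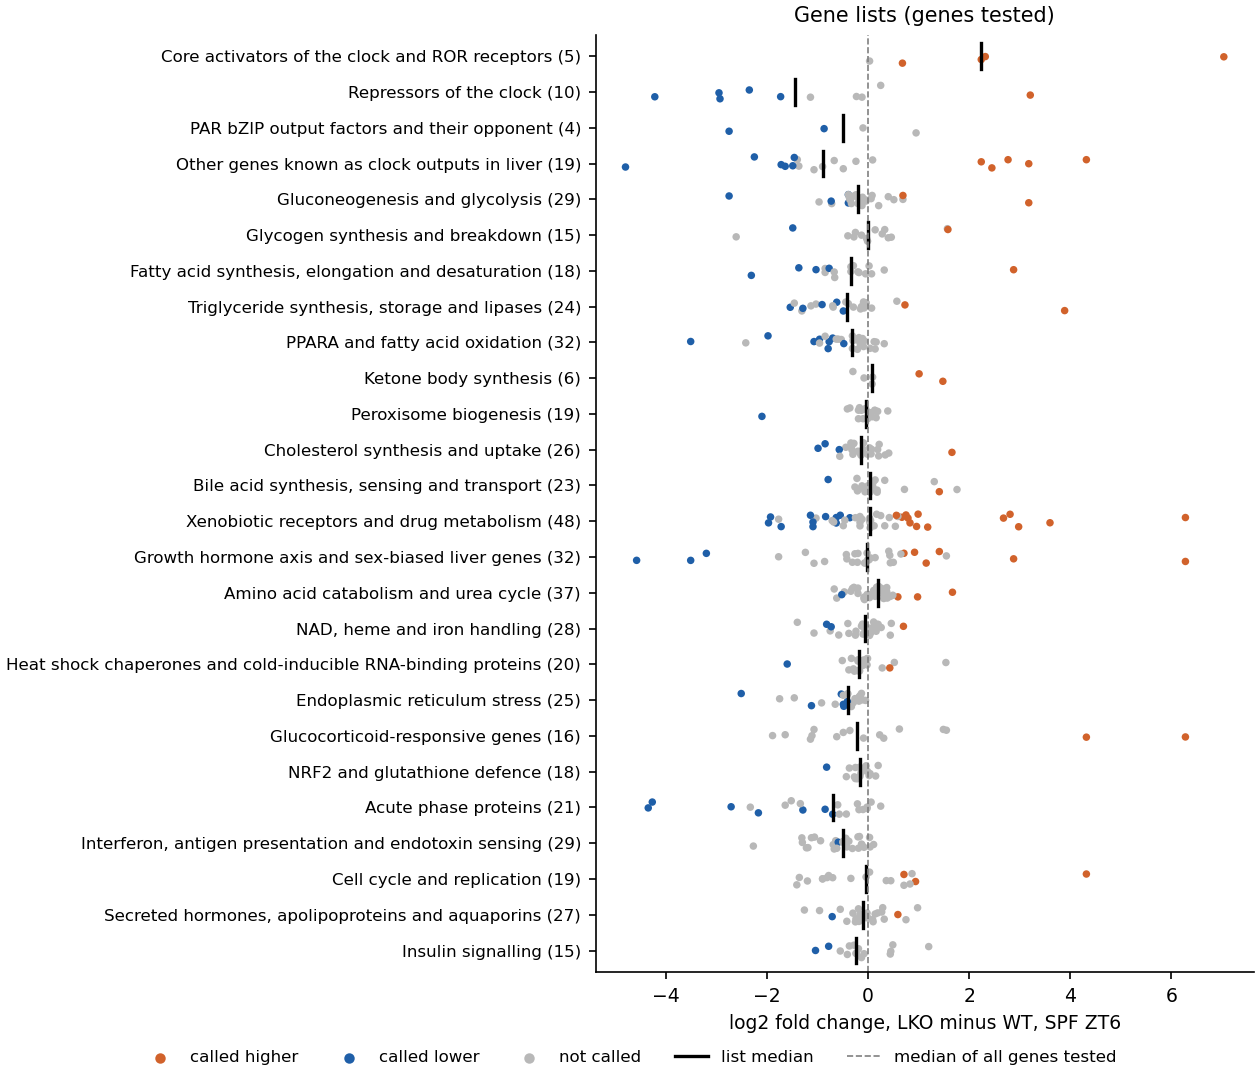
Log2 fold change (LKO minus WT, SPF ZT6) of each gene tested in 26 gene lists, with genes called higher in orange, called lower in blue and not called in grey. Black bars mark the median of each list and the dashed line the median of all genes tested, -0.01, with most lists centred near it and acute phase genes furthest below among the metabolic and stress lists, at -0.70.

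Enzymes of drug and steroid metabolism formed the list with the most calls: of 48 tested, 14 rose and 11 fell (52.1% beside 7.26% of all genes), and the median was 0.03. Both directions ran partly along gene families. In the Cyp2c family 5 genes rose, led by Cyp2c55 (3.60, SE 0.24, adjusted p = 1.18e-06). Cyp2c55 had 11, 9.65 and 17.8 CPM in WT and 136, 173 and 157 CPM in LKO livers. The calls of Cyp2c50 and Cyp2c54, also among the 5, were lost without WT replicate 2, WT replicate 3, LKO replicate 1 or LKO replicate 2. Gstm1, Gstm2 and Gstm3, mu-class glutathione transferases, rose by 1.18, 2.81 and 2.98, and Gstm3 went from 25.8, 21.8 and 50.2 CPM to 246, 237 and 290 CPM. Sult1e1, estrogen sulfotransferase, was nearly silent in WT livers at 0.0478 to 0.149 CPM and had 6.09, 11.9 and 2.33 CPM in LKO livers (6.28, SE 1.16, adjusted p = 0.0049). Cyp2b10, the usual readout of the receptor CAR, went from 16.9, 12.9 and 14.1 CPM to 92.7, 104 and 84.1 CPM (2.68, SE 0.45, adjusted p = 0.00254). The transcript of CAR itself, Nr1i3, did not pass (0.03, SE 0.21), and that of the receptor PXR, Nr1i2, fell by 0.36 (SE 0.10, adjusted p = 0.0496), a call kept only without WT replicate 3 among the 6 SPF libraries left out in turn.

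Genes that fell in the same list included alpha-class glutathione transferases and carboxylesterases. Gsta2, Gsta3 and Gsta4 fell by 0.84, 0.55 and 1.09, and Ces1e and Ces1f by 1.09 and 0.63. Cyp2a5, which oxidises coumarin, had 428, 192 and 365 CPM in WT and 76.3, 105 and 76.5 CPM in LKO livers, and fell by 1.93 (SE 0.30, adjusted p = 0.00137). Ugt1a9, a glucuronosyltransferase, had 44.1, 13.9 and 54.6 CPM against 11.6, 4.88 and 12.2 CPM and fell by 1.97 (SE 0.42, adjusted p = 0.0117), with its call lost without WT replicate 3 or LKO replicate 2. Gsta3 lost its call without each of the 6 SPF libraries, Gsta2 without 4 of them and Gsta4 without 3. With single SPF libraries left out the list kept 10 to 13 increases, and 4 to 10 decreases. The fewest decreases came without LKO replicate 2 (4), LKO replicate 3 (5), WT replicate 1 (6) and WT replicate 2 (7). Many of these enzymes belong to clusters of similar genes, whose shared reads the authors' counting left out.

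In fatty acid oxidation and its receptor PPARα 8 of 32 genes fell and 0 rose (25% called beside 7.26% of all genes, median -0.31). Fabp1, the fatty acid-binding protein of liver, had 5816, 5479 and 5024 CPM in WT and 2619, 2653 and 3129 CPM in LKO livers and fell by 0.96 (SE 0.15, adjusted p = 0.00158). Ppara itself, at 176, 114 and 119 CPM against 79.7, 85.1 and 86.9 CPM, fell by 0.70 (SE 0.17, adjusted p = 0.0262). Its call was lost without WT replicate 1 (-0.47, adjusted p = 0.0919), without any LKO library (adjusted p of 0.0814 to 0.101) and in the fit of 18 SPF libraries (adjusted p = 0.103). Cyp4a10, a fatty acid hydroxylase, fell by 1.98 (SE 0.52), and the acyl-CoA thioesterases Acot3 and Acot4 by 3.51 and 1.07, and each of these 3 calls was lost without WT replicate 1, WT replicate 3 or any LKO library. Cpt1a (-0.53, adjusted p = 0.0877) and Cpt2 of the carnitine shuttle and the mitochondrial enzymes Acadm and Hadha did not pass, while Acadl fell by 0.48 (call lost without LKO replicate 2). The count of 8 fell to 3 without LKO replicate 2, to 4 without WT replicate 1, LKO replicate 1 or LKO replicate 3, and to 5 without WT replicate 3. Of 19 genes of peroxisome biogenesis 1 fell, the transporter Abcd2, a share of 5.26% under the 7.26% of all genes. Abcd2 did not pass without WT replicate 1, WT replicate 3, LKO replicate 2 or LKO replicate 3. The monocarboxylate carriers Slc16a1 (1.01, SE 0.14) and Slc16a6 (1.48, SE 0.27), listed with ketone genes, rose.

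In fatty acid synthesis 4 of 18 genes fell and 1 rose (27.8% called beside 7.26%). Thrsp (Spot 14), which marks active lipogenesis, had 577, 427 and 452 CPM in WT and 132, 62.8 and 99.4 CPM in LKO livers and fell by 2.31 (SE 0.41, adjusted p = 0.00383). Acacb, which makes the malonyl-CoA that restrains oxidation, fell by 1.37 (SE 0.29, call lost without WT replicate 3 or LKO replicate 2), and the desaturase Fads2 by 1.03 (SE 0.18). The exception was Elovl3, an elongase of very long chains, with 131, 234 and 183 CPM against 898, 1422 and 1734 CPM (2.88, SE 0.33, adjusted p = 1.73e-04). Srebf1, which encodes the main activator of this pathway, did not pass (-0.18, SE 0.42). The 4 decreases became 2 without LKO replicate 2 and 7 without the library labelled WT GF ZT6 replicate 3. Among triglyceride genes and lipases 5 of 24 fell and 2 rose (29.2% called, median -0.42). Without the library labelled WT GF ZT6 replicate 3 the decreases numbered 8, and without WT replicate 1 the median was -0.26. Lpin2, a phosphatidate phosphatase, had 522, 432 and 432 CPM against 152, 169 and 157 CPM and fell by 1.54 (SE 0.24, adjusted p = 0.00163), and the fatty acid transporter Cd36 fell by 0.91 (SE 0.16). Lpl, described above, and hepatic lipase, Lipc (0.73, SE 0.11, adjusted p = 0.00111), rose.

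In glucose metabolism 2 of 29 genes rose and 4 fell (20.7% called beside 7.26% of all genes). Pdk4, the kinase that shuts pyruvate out of oxidation, rose from 5.75, 4.8 and 4.45 CPM to 32.6, 28.1 and 75 CPM (3.18, SE 0.52, adjusted p = 0.00215). Gckr, the regulatory protein of glucokinase, rose by 0.69 (SE 0.12, adjusted p = 0.0035). Slc2a2, the glucose transporter GLUT2, had 531, 394 and 525 CPM in WT and 316, 281 and 280 CPM in LKO livers and fell by 0.73 (SE 0.13, adjusted p = 0.00394). Pcx, pyruvate carboxylase, the first step of gluconeogenesis, fell by 0.39 (SE 0.10, adjusted p = 0.0369), a call kept only without WT replicate 3 among the 6 SPF libraries left out in turn. G6pc, glucose-6-phosphatase, the enzyme of the last step, did not pass (0.69, SE 0.27, adjusted p = 0.157). Pfkfb3, which drives glycolysis, had 117, 34.7 and 41.9 CPM against 10.4, 11.5 and 6.98 CPM and fell by 2.75 (SE 0.63, adjusted p = 0.0166), with its call lost without WT replicate 1 or any of the LKO libraries (adjusted p of 0.0607 to 0.0896). With single SPF libraries left out the decreases of this list numbered 3 without WT replicate 3, 2 without WT replicate 2 and 1 without each of the other 4, and they numbered 5 without the library labelled WT GF ZT6 replicate 3.

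Glycogen genes held 1 decrease and 1 increase among 15 tested (13.3% called beside 7.26% of all genes). They held 2 decreases and 3 increases without the library labelled WT GF ZT6 replicate 3. Gys2, the glycogen synthase of liver, had 330, 259 and 266 CPM in WT and 99.8, 103 and 101 CPM in LKO livers and fell by 1.49 (SE 0.12, adjusted p = 1.24e-05). Ppp1r3c, a subunit that brings protein phosphatase 1 to glycogen, rose from 59.2, 72.4 and 58.8 CPM to 213, 121 and 237 CPM (1.58, SE 0.28, adjusted p = 0.00377). In cholesterol synthesis and uptake 1 of 26 genes rose and 3 fell (15.4% called beside 7.26%). Insig2, which retains the sterol sensor in the endoplasmic reticulum, rose from 197, 277 and 209 CPM to 771, 715 and 668 CPM (1.66, SE 0.14, adjusted p = 1.41e-05). Stard4, a carrier of cholesterol, fell by 0.99 (SE 0.17). In bile acid metabolism 1 of 23 genes rose and 1 fell (8.7% called), a share near the 7.26% of all genes. Cyp7b1, of the alternative pathway, rose (1.41, SE 0.24, adjusted p = 0.00274), and Klb, the coreceptor for FGF15, fell by 0.79 (SE 0.15, adjusted p = 0.00679). Cyp7a1, the rate-limiting enzyme of the classical pathway, had 77.8, 28.6 and 38.7 CPM against 147, 132 and 212 CPM, without overlap, and did not pass (1.76, SE 0.52, adjusted p = 0.0608).

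Of 21 genes of acute phase proteins, which liver secretes in inflammation, 7 fell and 0 rose in LKO livers (33.3% called beside 7.26% of all genes, median -0.70), and 14 did not pass. Saa1, serum amyloid A, had 138, 436 and 259 CPM in WT and 24.1, 11.8 and 7.43 CPM in LKO livers and fell by 4.27 (SE 0.64, adjusted p = 0.00116). Saa2 had 88.4, 231 and 244 CPM against 15, 7.36 and 5.33 CPM and fell by 4.35 (SE 0.53, adjusted p = 2.46e-04). Both are near-identical copies, so reads that fit both were not counted. Saa3, made also by macrophages, fell by 2.71 (SE 0.66, adjusted p = 0.0254). Its call was lost without any LKO library (adjusted p of 0.0803 to 0.118) or without WT replicate 3, where the difference was -1.11 (adjusted p = 0.102). The abundant Hpx (hemopexin) and Hp (haptoglobin) fell by 0.85 (SE 0.17) and 0.70 (SE 0.17), Saa4 by 1.29 (SE 0.21) and Orm2 by 2.17 (SE 0.48). Hp and Orm2 were not called without WT replicate 2, LKO replicate 2 or LKO replicate 3, nor Hpx without LKO replicate 3. The fibrinogen chains Fga, Fgb and Fgg had differences of -0.02, -0.02 and 0.06 and did not pass, nor did Crp (-0.21, SE 0.15). The count of 7 became 6 without WT replicate 3, 5 without WT replicate 2, 4 without LKO replicate 2, 3 without LKO replicate 3 and 8 without WT replicate 1 or LKO replicate 1.

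The 10 Kupffer cell markers summed to 370, 520 and 733 CPM in WT and 308, 356 and 302 CPM in LKO livers, all 10 had negative fold changes, and 5 passed (Vsig4, Cd5l, C1qc, C1qa and Clec4f, by 0.61 to 0.81). WT replicate 3 was highest in each of the 10. Without it 1 of the 10 passed, as without WT replicate 2 or any LKO library, while 9 passed without WT replicate 1. The 7 neutrophil markers summed to 2.51, 21.3 and 11.7 CPM in WT and 2.22, 3.05 and 1.43 CPM in LKO livers. Of the 2 tested S100a8 fell (by 2.66, SE 0.60), a call lost without WT replicate 2 or any LKO library, and the others were under the filter on low counts. Lymphocyte markers, none called, summed to 10.3, 22.2 and 56.3 CPM in WT and 15 to 18.8 CPM in LKO livers. The 10 endothelial and 10 stellate markers had 0 calls, with sums that overlapped (298 to 340 against 233 to 354 CPM, and 390 to 526 against 372 to 420 CPM). The part of immune cells in the acute phase result was not tested.

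**Figure D3:**
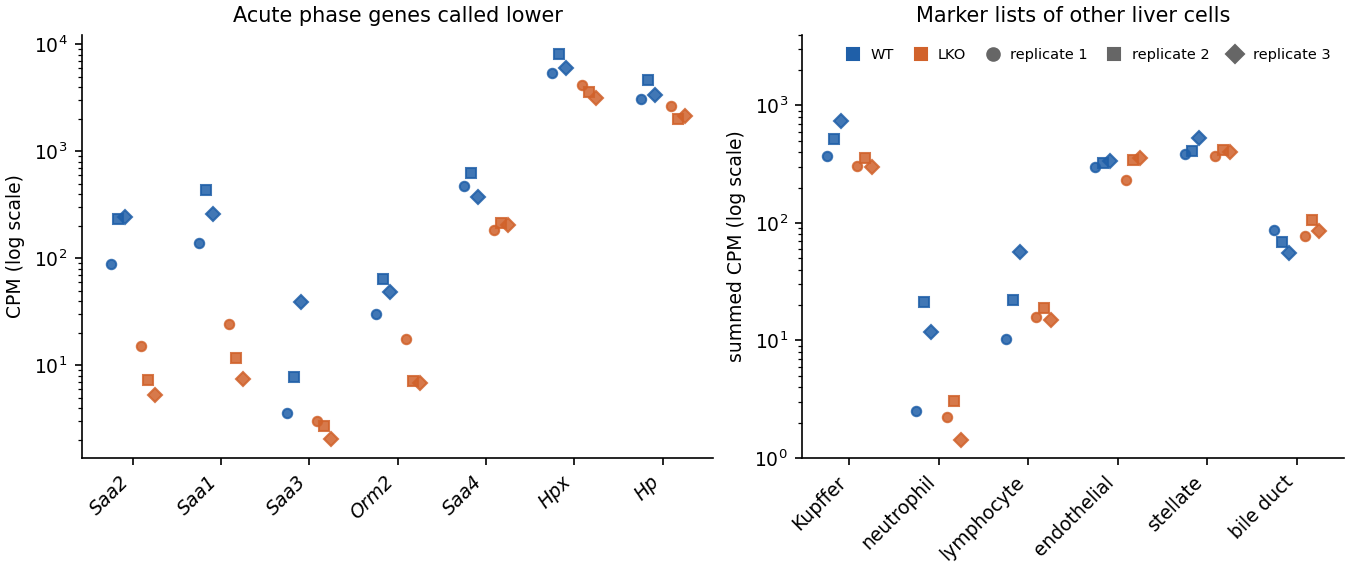
Left, CPM on a log scale of the 7 acute phase genes called lower, in 3 WT (blue) and 3 LKO (orange) SPF livers at ZT6. Right, summed CPM on a log scale of 6 marker lists of other liver cells in the same libraries, with symbols for replicates, where WT replicate 3 is highest for Kupffer cells, lymphocytes and stellate cells.

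Genes of endoplasmic reticulum stress shared a small shift. All 25 tested had negative fold changes, beside 7002 of 13609 genes in all, with a median of -0.40, and 6 fell (24.0%). Trib3, a pseudokinase induced by the integrated stress response, had 12.9, 8.6 and 12.9 CPM in WT and 1.86, 1.64 and 2.51 CPM in LKO livers and fell by 2.51 (SE 0.57, adjusted p = 0.0165). Herpud1, of the degradation machinery, had 622, 372 and 268 CPM against 191, 227 and 164 CPM and fell by 1.12 (SE 0.25, adjusted p = 0.0167). The call of Trib3 was lost without any LKO library and that of Herpud1 without WT replicate 1, LKO replicate 1 or LKO replicate 3. The sensor Atf6 fell by 0.53 (SE 0.11), Xbp1 by 0.48 (SE 0.14), Dnajc3 by 0.49 and Dnajb11 by 0.41. The chaperone Hspa5 (BiP), at 1140, 1028 and 663 CPM against 702, 755 and 693 CPM, overlapped and did not pass (-0.40, SE 0.19). The count of 6 became 5 without WT replicate 3, 3 without WT replicate 1, 2 without WT replicate 2 and 1 without any LKO library, and the median stayed between -0.27 and -0.51.

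Among 32 genes of the growth hormone axis and of male or female liver 6 rose and 3 fell (28.1% called beside 7.26%). Stat5b, which carries the growth hormone signal, rose from 49.5, 60.7 and 55.7 CPM to 80.9, 95.4 and 95.4 CPM (0.71, SE 0.16, adjusted p = 0.0177), and Stat5a rose by 1.15 (SE 0.28). The call of Stat5b was lost without WT replicate 1, LKO replicate 2 or LKO replicate 3, and that of Stat5a without each SPF library but LKO replicate 1. Genes usually higher in males rose in part (Elovl3, Cyp7b1 and Mup21 with 0.92, SE 0.20), but the male genes Hsd3b5, Cyp2d9, Mup20 and Slco1a1 did not pass. Of those usually higher in females, Sult1e1 rose, and Acot3 and Cyp17a1 fell as Mup17 did, Cyp17a1 from 5.4, 2.55 and 3.4 CPM to 0.728, 0.222 and 0.269 CPM (-3.20, SE 0.42, adjusted p = 4.34e-04). Ghr and Igf1 had differences of 0.14 (SE 0.11) and -0.07 (SE 0.15) and did not pass. The 6 increases became 3 without LKO replicate 2, and the 3 decreases 1 without LKO replicate 1 or LKO replicate 3.

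The remaining lists held few calls, and their shares are set beside the 7.26% of all genes. They were 10.8% for amino acid genes, 10.7% for NAD, heme and iron, 10.0% for heat shock and cold-inducible genes and 7.41% for secreted factors. For interferon and antigen presentation the share was 3.45%, for insulin signalling 13.3%, for antioxidant defence 5.56% and for cell cycle 15.8%. Of 37 genes of amino acid breakdown and the urea cycle 3 rose (Bhmt, Bhmt2 and Oat) and 1 fell (Ahcy), with a median of 0.19. Nampt, the rate-limiting enzyme of NAD salvage and a known clock target, had 131, 103 and 129 CPM in WT and 66.9, 55.1 and 50.9 CPM in LKO livers, yet did not pass in the fit of the ZT6 libraries (-1.07, SE 0.35, adjusted p = 0.0877). Without the library labelled WT GF ZT6 replicate 3 the lists of clock outputs and of NAD, heme and iron held 10 and 5 decreases in place of 6 and 2. Hmox1 and Slc40a1, of heme breakdown and iron export, fell by 0.82 (SE 0.23) and 0.73 (SE 0.12). Cirbp, a cold-inducible RNA-binding protein, rose (0.43, SE 0.11), and Hspb1, a small heat shock protein, fell by 1.6 (SE 0.45, adjusted p = 0.0494). Lists of interferon and antigen presentation (H2-K1, -0.59, SE 0.15), insulin signalling (Enho, -1.04, SE 0.22, and Foxo3, -0.78, SE 0.17), antioxidant defence (Hmox1) and cell cycle (Cdkn1a, Mcm4, 0.94, SE 0.21, and Mcm6, 0.71, SE 0.20) had 1 to 3 calls each. With the 6 SPF libraries left out in turn, the call of Hspb1 was lost in each of the 6 fits, that of Ahcy in 5, those of Hmox1, Cirbp and Mcm6 in 4, that of H2-K1 in 3, those of Mcm4 and Enho in 2 and that of Foxo3 in 1. Such small counts moved with single libraries, the interferon list for example from 1 decrease to 7 without WT replicate 1, and amino acid genes from 3 increases to 6. Among secreted factors Lect2 rose (0.59, SE 0.12), Apom fell by 0.71 (SE 0.14), and Fgf21 did not pass (0.14, SE 0.67). Of 6 bile duct markers tested 2 rose (33.3% called beside 7.26% of all genes), among them Sox9 by 1.85 (SE 0.28). With single SPF libraries left out 1 to 2 rose. Differences were positive for 3 of the 6 and negative for the keratins Krt19 and Krt7 and for Epcam, which did not pass. Cela1, an elastase listed with exocrine pancreas, rose by 1.76 (SE 0.16), and 7 of the 9 genes of that list had no count in any of the 6 libraries.

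The LKO level at ZT6 was then set against SPF WT livers over the whole day, as means of 3 libraries at each of 6 times, in CPM scaled over these libraries. The library labelled WT SPF ZT14 replicate 3 stands apart from its group, and the counts are given with and without it. Of 515 genes called higher that passed the filter in these libraries, 442 (85.8%) had an LKO mean above the highest of the 6 WT means, or 438 without that library. Of 462 genes called lower 386 (83.5%) lay below the lowest WT mean, or 380. Over all 13553 genes the shares above and below were 19.8% and 20.1%. Since the genes were called against WT at ZT6, which is among the 6 times, these shares are a description and were not tested.

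Several core clock genes lay within the WT range. Arntl, with a mean of 11.2 CPM in LKO livers, lay between WT means of 1.32 CPM at ZT10 and 37.2 CPM at ZT22. Nr1d1 and Dbp lay far under their WT means at ZT6 but above the WT means at ZT18 (0.872 CPM) and ZT22 (0.769 CPM) respectively. Clock, Nr1d2, Per3, Ciart, Tef and Usp2 also lay within. Npas2 and Cry1 exceeded their highest WT means, 9.52 CPM at ZT22 and 51.5 CPM at ZT18. Gys2 and Por lay below their lowest WT means, 129 and 153 CPM at ZT22. Lpl, Slc10a2 and Mme were far outside at every hour, since Lpl had WT means of 26.6 to 48.5 CPM, Slc10a2 of 47.1 to 104 CPM and Mme of 63.2 to 133 CPM.

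**Figure D4:**
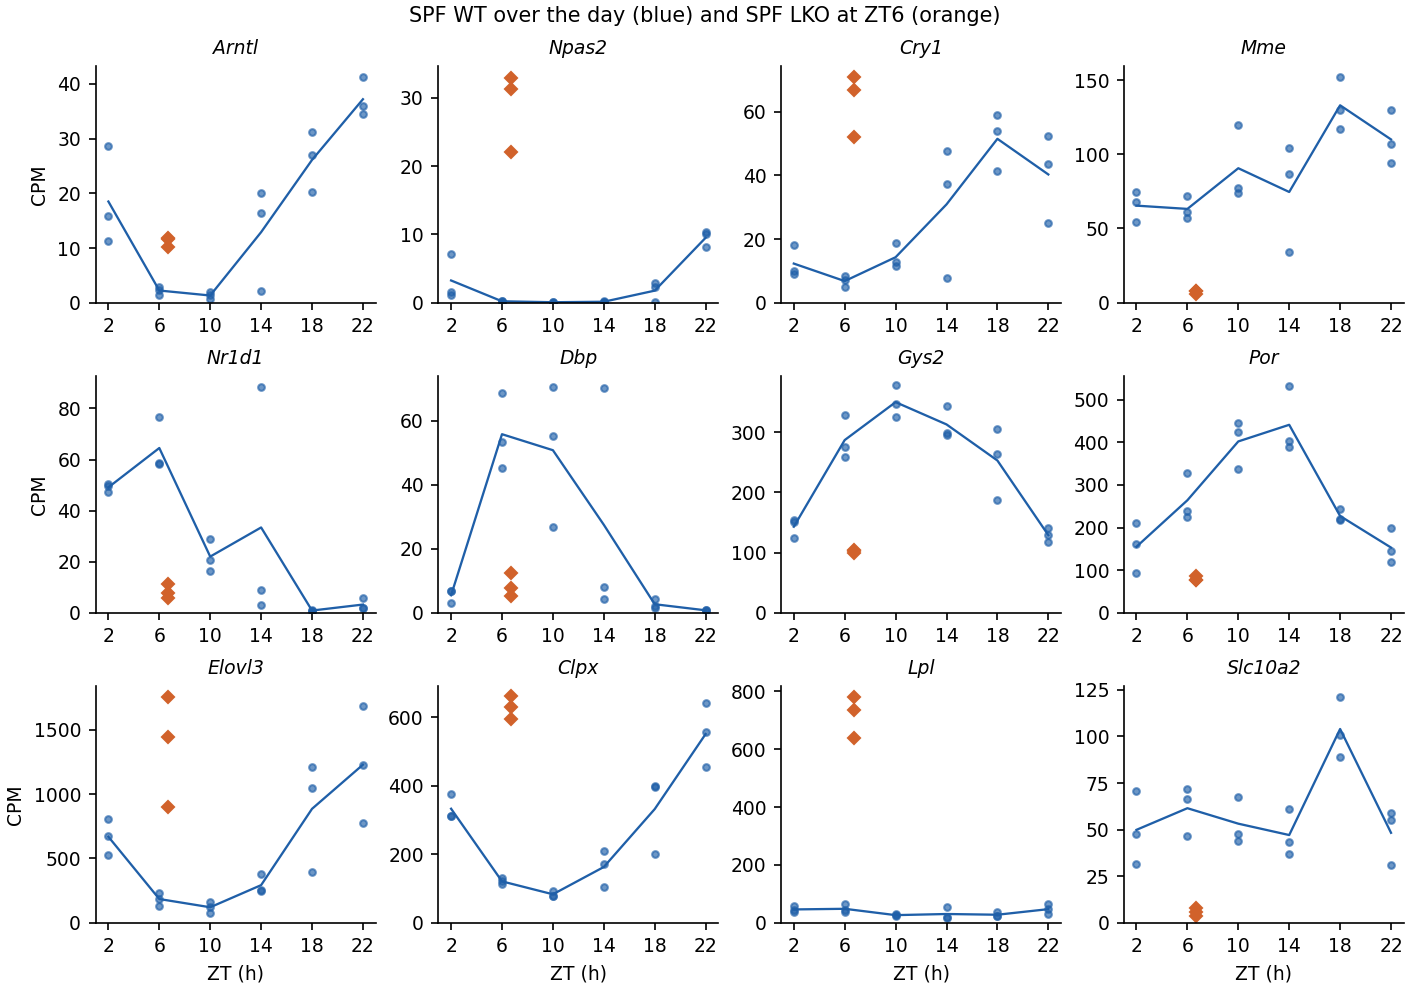
CPM of 12 genes in SPF WT livers at 6 times (blue points for libraries, line through the means of 3) and in the 3 SPF LKO livers at ZT6 (orange diamonds, drawn slightly to the right). LKO values of Arntl, Nr1d1 and Dbp lie within the span of the WT means, those of Npas2, Cry1 and Lpl above and those of Gys2, Por, Mme and Slc10a2 below it, though the lowest Cry1 value is among single WT libraries of ZT18 and ZT22.

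Whether the genotype effect at ZT6 differed from that at ZT2 and ZT10 was tested as an interaction in the 18 SPF libraries of these times, over which CPM in this and the following 2 paragraphs were scaled. On their own in this fit, ZT2 gave 1186 called genes (8.42%), ZT6 1461 and ZT10 1771 (12.6%). The 988 genes given above for ZT6 came from the fit of the 12 libraries of ZT6 and are not to be set beside these counts. Between ZT6 and ZT2 the genotype effect differed for 11 of 14083 genes (0.0781%), with 1299 at an unadjusted p under 0.05 and 64 called by DESeq2. Clpx, a subunit of the mitochondrial ClpXP protease, had the smallest p. At ZT2 it had 323, 390 and 325 CPM in WT and 648, 605 and 641 CPM in LKO livers, and at ZT6 118, 135 and 124 CPM against 661, 684 and 618 CPM. The LKO level was alike at both times and the WT level was lower at ZT6, which made the effect larger by 1.51 (SE 0.14, adjusted p = 7.73e-05). Arntl had 11.7, 29.6 and 16.5 CPM in WT and 15.4, 12.5 and 11.9 CPM in LKO livers at ZT2, an effect of -0.54 (SE 0.28) there against 2.33 (SE 0.32) at ZT6, and the difference was 2.87 (SE 0.43, adjusted p = 0.011). Wee1, a kinase that holds back mitosis and a known clock target, changed sign, from an effect of 1.85 (SE 0.28, adjusted p = 4.00e-04) at ZT2 to -0.89 (SE 0.25, adjusted p = 0.0266) at ZT6 in the 18 libraries, where the 12 libraries of ZT6 gave -0.90 (SE 0.42, adjusted p = 0.237). The difference was -2.74 (SE 0.37, adjusted p = 0.00697).

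Metabolic genes were among them. For Gys2, LKO livers held 101 to 113 CPM at both times, and WT livers 158, 128 and 162 CPM at ZT2 and 342, 271 and 281 CPM at ZT6 (difference -1.0, SE 0.15, adjusted p = 0.011). For Thrsp the effect went from 0.37 (SE 0.31) to -2.30 (SE 0.33), with WT livers at 87.6 to 129 CPM at ZT2 and 447 to 599 CPM at ZT6 (difference -2.67, SE 0.45, adjusted p = 0.0245). For Nampt it went from -0.03 (SE 0.13) to -1.06 (SE 0.13), a difference of -1.04 (SE 0.19, adjusted p = 0.0471), and in this fit of 18 libraries Nampt was called at ZT6 (adjusted p = 3.83e-05). Cdkn1a (3.01), Slc45a3 (1.65), Lgalsl (1.15) and Fpgs (0.71) also had a larger effect at ZT6.

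Between ZT6 and ZT10 the effect differed for 2 of 14083 genes (0.0142%), with 1359 at an unadjusted p under 0.05 and 61 called by DESeq2. Aatk, a kinase, was not called at ZT6 (-0.49, SE 0.26) and was lower by 2.81 (SE 0.26) at ZT10 (difference 2.33, SE 0.37, adjusted p = 0.049). Its adjusted p was close to the threshold, and the count ran from 0 to 11 with single libraries left out.

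**Figure D5:**
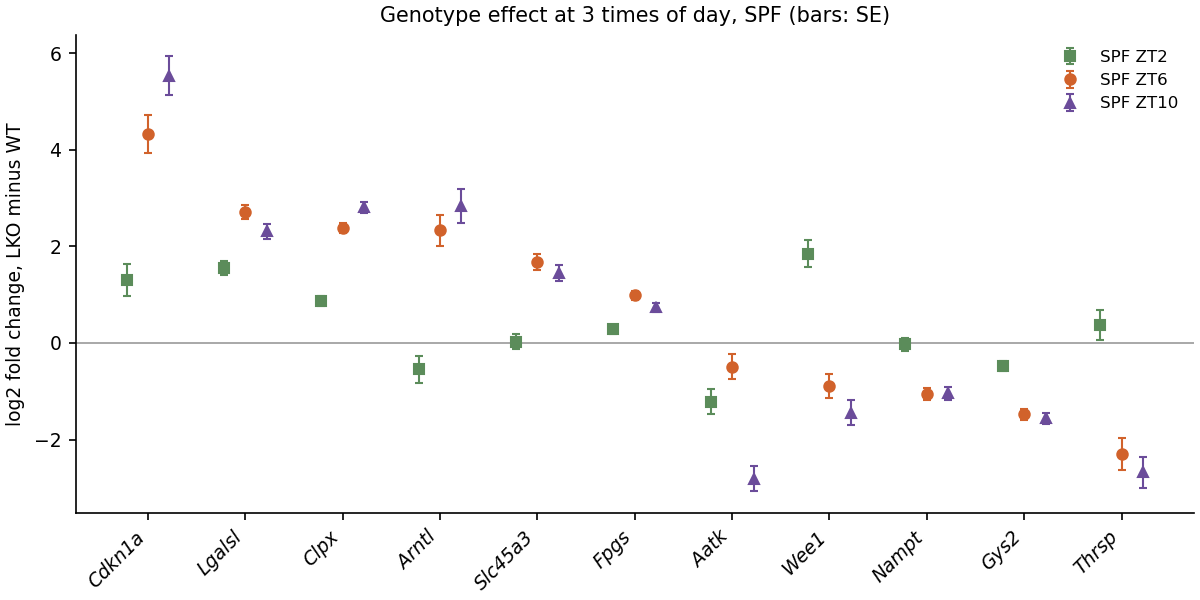
Genotype effect (log2 fold change, LKO minus WT, with SE) at SPF ZT2 (green squares), ZT6 (orange circles) and ZT10 (purple triangles) for 11 genes whose effect at ZT6 differed from that at ZT2 or ZT10. Clpx, Arntl and Cdkn1a are further above 0 and Thrsp, Gys2 and Nampt further below 0 at ZT6 than at ZT2, and Wee1 changes sign.

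In germ-free mice of the same genotypes and hour 1587 of 13609 genes (11.7%) were called. This count, the overlaps and the GF fold changes below include the library labelled WT GF ZT6 replicate 3 in the WT mean. That library went against its label, and GF calls and fold changes without it are not given. Of the 526 genes higher in SPF LKO livers 400 (76% of these and 52.6% of the 761 higher in GF) were called higher in GF livers as well, and of the 462 lower 315 (68.2% of these and 38.1% of the 826 lower in GF). None was called in the opposite direction. The difference of the effect between SPF and GF mice passed for 0 of 13609 genes (0.0%) by edgeR, with 774 at an unadjusted p under 0.05, and for 7 by DESeq2 (Gpc1, Nat8, Inhbe, Tsc22d1, Ift57, Tedc2 and Aqp4). Without the library labelled WT GF ZT6 replicate 3 it passed for 1 gene by edgeR. Side by side, Npas2 changed by 7.04 in SPF and 6.91 in GF livers, Lpl by 3.89 and 3.93, Clpx by 2.37 and 2.43, Saa1 by -4.27 and -2.27, Ciart by -2.93 and -6.41 and Cyp7a1 by 1.76 and 0.24. These pairs are values of 2 separate comparisons, and no gene among them passed the test of the difference by either tool.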

How the data were processed

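The authors extracted RNA from whole livers, made stranded mRNA libraries, read them as single 50-base reads, aligned them to mm10 with STAR 2.6.1b and counted them per gene with featureCounts 2.0.0. The deposited values are raw counts, from unique reads and without use of strand, so near-identical and overlapping genes are uncertain. Differences were tested with edgeR 4.0.16 (R 4.3.3, quasi-likelihood, TMM, filterByExpr, adjusted p under 0.05), on the 12 libraries of ZT6 as 4 group means, or for times on 18 SPF libraries as 6 group means. DESeq2 1.42.0, another scaling, no filter, protein-coding genes alone, other sets of libraries, a replicate block and single libraries left out were alternatives, and the step was tested on simulated data. Named genes were the clock genes, the 15 largest increases and decreases among called, non-overlapping genes whose mean log2 CPM was 1 or more, for each list its first gene and up to 3 in each direction, and for each difference the 5 smallest p in each direction. Other genes named were chosen after their values were seen. The members and lists were chosen with earlier results of these data known. Some genes that entered the tests and counts are not reported here. Of 55573 genes 22224 had no count. Across the 72 libraries depth was 17369927 to 22076113 counts. Promoter windows came from RefSeq.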

Additional observations from a re-analysis of the deposited data

Results flagged for a closer look

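The genotype effect in SPF livers at ZT6 differed from that at ZT2 for 11 genes by the interaction test, 10 of them given here. It was more positive at ZT6 for Clpx (by 1.51), Slc45a3 (1.65), Arntl (2.87), Cdkn1a (3.01), Lgalsl (1.15) and Fpgs (0.71). It was more negative for Wee1 (-2.74), Gys2 (-1.0), Thrsp (-2.67) and Nampt (-1.04). Slc45a3, a solute carrier, had 45, 53.8 and 47.9 CPM in WT and 51.6, 49.7 and 48.8 CPM in LKO livers at ZT2. At ZT6 it had 19.6, 16.7 and 16.9 CPM in WT and 54.7, 61.9 and 54.2 CPM in LKO livers, so the groups overlapped at ZT2 and not at ZT6. Fpgs, which adds glutamates to folate, had 91.5 to 93.6 CPM in WT and 168 to 193 CPM in LKO livers at ZT6, and 129 to 149 and 157 to 171 CPM at ZT2. Lgalsl, a galectin-like gene, was called at both times, with effects of 1.55 at ZT2 and 2.71 at ZT6.

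Against ZT10 the effect differed for Aatk (2.33), among 2 genes. Aatk had 12.7, 8.99 and 15.1 CPM in WT and 1.58 to 1.94 CPM in LKO livers at ZT10, and 2.01 to 3.23 CPM in WT and 1.68 to 2.45 CPM in LKO livers at ZT6, where the groups overlapped. Each group held 3 libraries, so single libraries were not tested as outliers.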

How the results depend on the processing

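The count of 988 genes (526 higher, 462 lower) was within 1.5 times of its value under DESeq2, another scaling, protein-coding genes alone, the 6 SPF libraries alone and the 18 SPF libraries. Without a filter it was 1830 (912 higher, 918 lower), and with a log2 fold change of at least 1 it was 499. With single libraries left out it ran from 534 to 1452 (higher 337 to 730, lower 197 to 722). The count of genes whose effect differed between SPF and GF was 7 by DESeq2, 319 without a filter and 0 to 1 with single libraries left out. Against ZT2 it was 64 by DESeq2, 441 without a filter and 5 to 16 with libraries left out. Against ZT10 it was 61 by DESeq2, 1 with DESeq2 size factors, 426 without a filter and 0 to 11 with libraries left out. The cause was not tested. Replicate numbers did not pair the samples: over 18 pairs of libraries the correlation of deviations ran from -0.227 to 0.159, and 1 was over 0.1. With the replicate block 791 genes were called at ZT6 (429 higher, 362 lower), 8 differed from ZT2 and 0 from ZT10, and Fgf21 had -0.11.

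All 90 named genes that were called kept their sign under each alternative that tested them, and 68 to 90 kept their call with single libraries left out. Changes of sign occurred among genes that were not called: Srebf2 (0.03 without a filter, 0.00 with protein-coding genes alone) and Hsf1 (0.02 without a filter). With libraries left out Rora ran from -0.03 to 0.10, Per2 from -0.30 to 0.30, Hlf from -0.21 to 0.15, Srebf2 from -0.08 to 0.11, Nr1i3 from -0.13 to 0.27, Hsf1 from -0.08 to 0.05, Nfe2l2 from -0.09 to 0.04 and Fgf21 from -1.15 to 0.58. With 3 livers a side and genes near the detection limit such as Npas2 in WT, fold changes against near-zero levels depend on few reads.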

Other observations

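DESeq2 called 7 genes whose effect differed between SPF and GF livers at ZT6, none of which passed by edgeR (adjusted p = 0.761 for each). Tsc22d1, a leucine zipper protein, rose in SPF livers (1.52, SE 0.22, adjusted p = 8.68e-04), from 66.7, 45.2 and 57.1 CPM to 142, 136 and 207 CPM, and had -0.06 in GF livers. Inhbe, a hepatokine subunit, had -0.30 in SPF livers, with LKO replicate 2 at 16.4 CPM and the other LKO livers at 32.8 and 39.3 CPM, and -2.32 in GF livers. Nat8 was lower by 3.43 in SPF and by 5.99 in GF livers. The GF values include the library labelled WT GF ZT6 replicate 3, which went against its label.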
